A study of Mus musculus with 2 samples.

Results

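Solute carriers (Slc genes) are the membrane proteins that move sugars, amino acids, ions, nucleotides and vitamins across the surface and the inner membranes of a cell. Members were the symbols made of Slc, a family number and a letter that held at least 300 unique molecular identifiers (UMIs, 1 count per captured transcript molecule) summed over both libraries. Of 376 Slc symbols among 32285 genes, 145 met this rule. They held 99.2% of all Slc UMIs and 0.775% of all UMIs, and 84 of the 231 others had no UMI. By family the members comprised 8 glucose and sugar carriers, 24 amino acid and peptide carriers, 2 nucleoside carriers, 37 ion and metal carriers, 31 mitochondrial carriers of the Slc25 family, 18 nucleotide sugar carriers (Slc35), 4 monocarboxylate carriers, 18 carriers of other organic solutes, and 3 symbols that are not carriers (Slc9a3r1, Slc4a1ap and Slc7a6os). The members just inside the minimum were Slc6a20b with 302 UMIs and Slc25a42 with 307, and those just outside were Slc18a2 with 295 and Slc11a1 with 275. Slc7a11, the cystine carrier, had 134 UMIs and was no member.

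The cells were live eGFP-positive leukocytes of the small intestine of healthy Il23r-eGFP reporter mice, whose eGFP is driven from the Il23r locus, so that sorting on it selects cells with active Il23r. Peyer's patches and epithelium had been removed before the sort. One library held unstimulated cells and the other held cells given recombinant mouse IL-23 for 2 hours. Both groups carry the same knock-in reporter allele. How many animals were pooled, and whether the unstimulated cells were incubated, is not given in the sources used here. The protocol text of both libraries mentions the cytokine, and the treatment label alone sets the groups.

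Lymphocytes draw on these carriers when they grow or secrete. GLUT proteins of the Slc2 family bring in glucose, the heavy chain Slc3a2 (CD98) anchors the amino acid exchangers Slc7a5 and Slc7a6 in the membrane, and Slc25 proteins carry phosphate, nucleotides and cofactors into mitochondria. The metal families Slc11, Slc30, Slc39 and Slc41 move iron, zinc, manganese and magnesium. Group 3 innate lymphoid cells (ILC3s), the IL-22 producers of the gut wall, are usually split into an Ncr1-positive kind and a Ccr6-positive, lymphoid tissue inducer-like kind.

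A cell was kept if it had 500 genes or more and no more than 10% of its UMIs from mitochondrial genes, which left 10790 unstimulated and 9251 stimulated cells. The libraries held 58443284 and 62291905 UMIs, and the kept cells had medians of 4928 and 6087 UMIs. Cells with no UMI of Cd3d, Cd3e or Cd3g and with a UMI of Ncr1 or Ccr6, called ILC gate cells here, numbered 2635 and 2781. Of these, 1052 and 1258 were Ncr1 cells without Ccr6, and 1535 and 1464 were Ccr6 cells without Ncr1. CD3-chain-negative cells with a UMI of neither gene numbered 7440 and 5802, and Cd3e-positive cells 495 and 430. Markers other than the gate genes were then read in each gate. Tbx21 was at 25.2 and 22.2 CPM (UMIs per 1000000 UMIs of the cell group; here and below the unstimulated library comes first) in Ncr1 cells and at 1.34 and 1.20 CPM in Ccr6 cells, Nrp1 stood lower in the former, at 52.8 and 43.4 CPM against 219 and 209 CPM, and Trdc at 1.41 and 1.12 CPM in the ILC gate against 755 and 722 CPM in Cd3e-positive cells. Trbc2 transcripts stood at 224 and 158 CPM in the ILC gate, which is defined by CD3 chains alone. Summed T cell markers were at 444 and 352 CPM there, against 3462 and 3031 CPM in Cd3e-positive cells. Of the 2635 and 2781 ILC gate cells, 997 and 974 had no UMI of Cd247, Trac, Trbc1, Trbc2 or Trdc. Il22 in the ILC gate was at 6319 and 27770 CPM. Summed macrophage, B cell, mast cell, epithelial and red cell markers reached at most 15.9 CPM in any ILC group of either library, dendritic markers 69.5 and 57.8 CPM in the ILC gate (Zbtb46 36.3 and 22.9, Itgax at 0), endothelial or stromal markers 76.8 and 82.5 CPM (Pecam1 76.1 and 82.5, Cdh5 0.552 and 0), and plasma cell markers 1542 and 1545 CPM. Plasma cell markers were unevenly spread: Igkc was at 1623 and 2.62 CPM in Ncr1 cells and at 13.5 and 1474 CPM in Ccr6 cells. Between the libraries 29 barcodes were shared. Each group was 1 library, so no difference was tested, the 95% intervals cover counting error only, and fewer transcripts per cell cannot be told apart from fewer cells of a kind within a gate.

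In the ILC gate, 84 members were measured, meaning at least 10 CPM in 1 library and at least 20 UMIs over both. With IL-23, 7 of these were at least 1.5-fold higher (Slc11a2, Slc39a8, Slc41a1, Slc25a51, Slc25a20, Slc16a6 and Slc2a3) and 5 at least 1.5-fold lower (Slc16a10, Slc41a3, Slc25a24, Slc22a15 and Slc10a3). Of the 7066 genes measured in these cells, 3.72% were higher and 4.57% lower by this size. Ion and metal carriers, 22 of the 84 measured members, made up 3 of the 7 higher and 1 of the 5 lower ones. All 12 members stood on the same side of 1 in cells with neither gene and in Cd3e-positive cells, which the ILC gate does not include. The Ncr1 and Ccr6 cells, in which they did so too, make up nearly all of the gate by which the 12 were chosen. All these groups come from the same libraries, so a difference shared by a whole library would recur in them. The share of all genes that kept their side is not given here, so this cannot be read as particular to Slc genes. In Cd3e-positive cells Slc41a3 lay below the measured minimum, with a log2 ratio of -0.09. Counted in each cell group on its own, 10 of 89 measured members were higher and 9 lower in Ncr1 cells (5.18% and 7.26% of all genes), 7 of 85 higher and 2 lower in Ccr6 cells (2.87% and 4.32%), and 6 of 85 higher and 6 lower in cells with neither gene (4.09% and 3.89%). In all kept cells together 6 of 85 were higher and 5 lower, against 4% and 3.53% of all genes. The median log2 ratio of the measured members in the ILC gate was -0.12, and that of all measured genes was -0.12. With TMM scaling, which adds 0.15 to each log2 ratio here, the split of higher to lower members was 8 to 2, with 5.24% and 2.17% of all genes, and Slc22a15, Slc16a10 and Slc10a3 were not past the size.

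**Figure D1:**
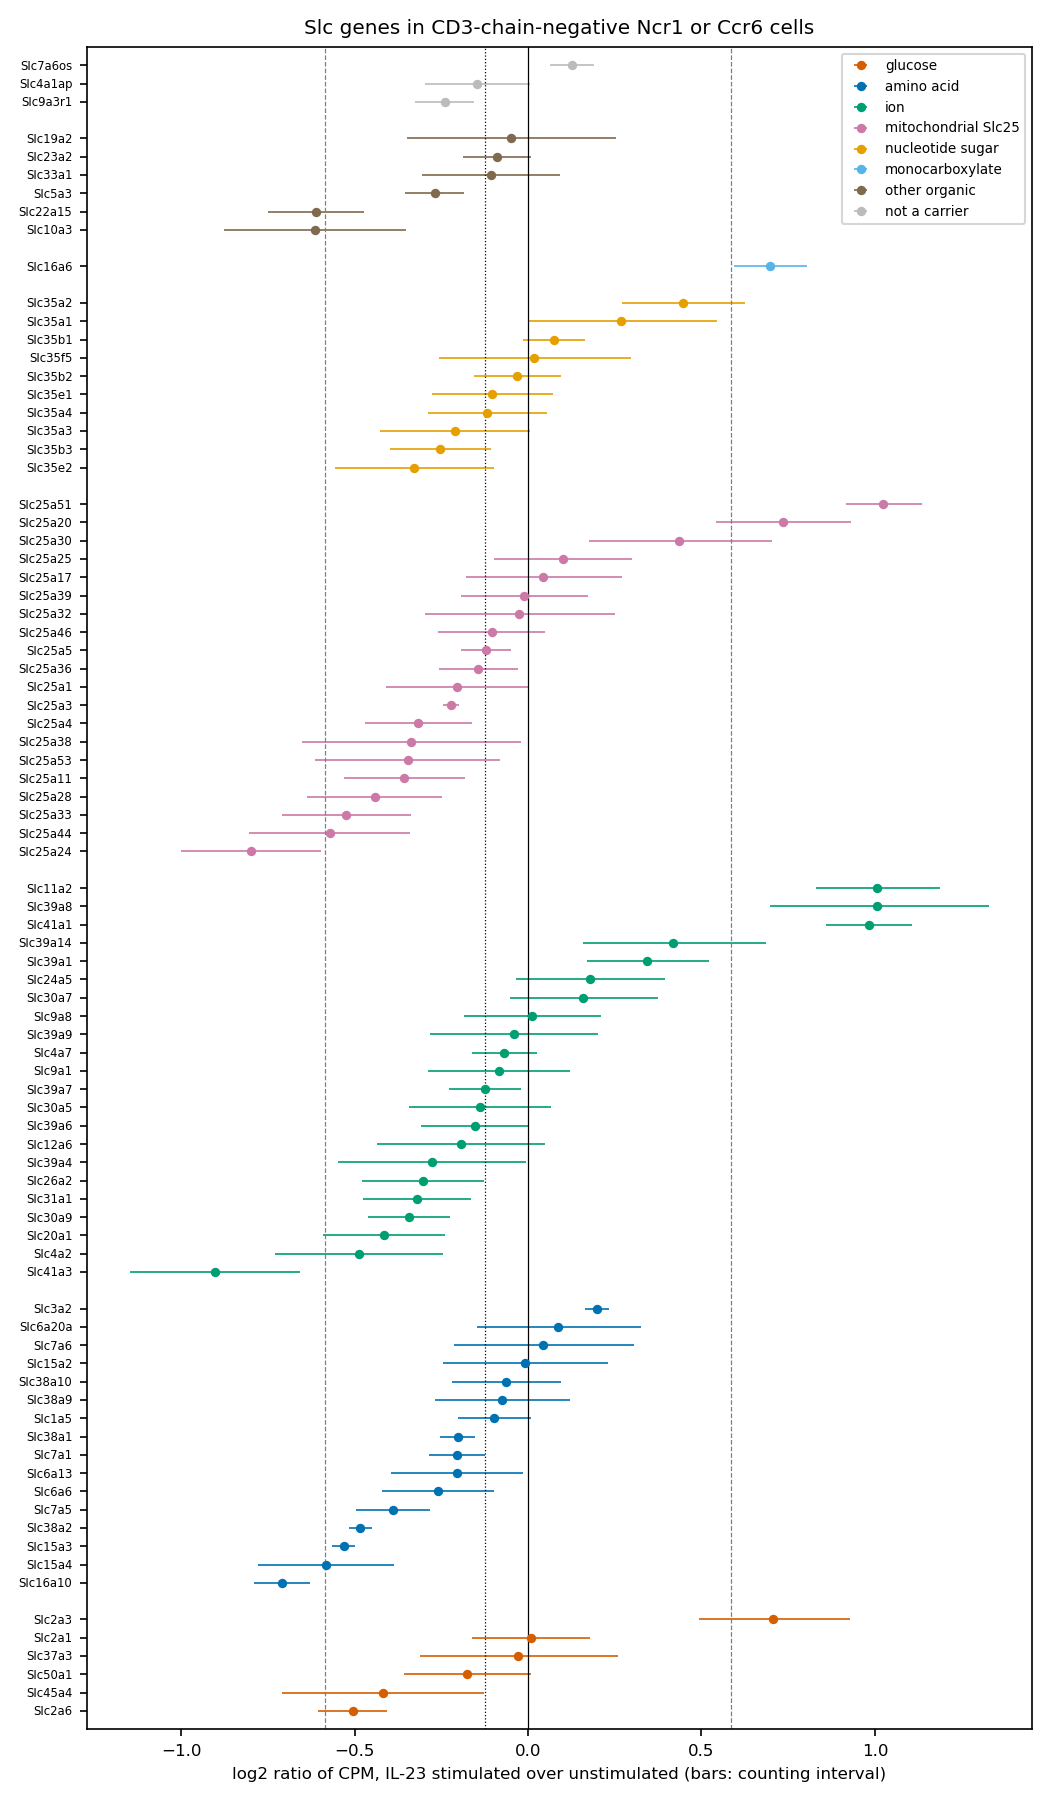
Log2 ratio of CPM (x axis), IL-23 stimulated over unstimulated, of the 84 measured Slc genes (rows, coloured by class) in ILC gate cells; points are the ratios, bars their 95% counting intervals, dashed lines 1.5-fold and the dotted line the median of all measured genes (-0.12). Slc25a51, Slc11a2, Slc39a8 and Slc41a1 lie furthest to the right, from 0.98 to 1.02, and Slc41a3 furthest to the left at -0.90.

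Among metal carriers, Slc11a2 (DMT1, the ferrous iron importer; chromosome 15, 100387898 to 100425072, GRCm38) had 21.9 CPM (19.7 to 24.3) in the unstimulated and 44.0 CPM (41.3 to 46.9) in the stimulated ILC gate, 2.01-fold higher (1.78 to 2.28). It was at 19.8 and 50.7 CPM in Ncr1 cells, 23.5 and 38.2 CPM in Ccr6 cells, 20.6 and 42.0 CPM in cells with neither gene, and 20.9 and 30.0 CPM in Cd3e-positive cells. The stimulated library was the higher one in each group, and the intervals of the ratios in Ncr1 cells (2.12 to 3.12) and Ccr6 cells (1.37 to 1.93) did not overlap. The annotation places Gm5475 on the other strand of Slc11a2, and this gene was at 0.552 and 1.40 CPM.

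Slc39a8 (ZIP8, an importer of zinc and manganese; chromosome 3, 135825279 to 135888572) was at 7.18 CPM (5.94 to 8.60) and 14.4 CPM (12.9 to 16.2), 2.01-fold higher (1.62 to 2.51). Cd3e-positive cells had 7.62 CPM (5.02 to 11.1, 27 UMIs) and 27.1 CPM (21.9 to 33.1, 95 UMIs). The intervals of Slc39a8 in the ILC gate and in Cd3e-positive cells overlapped without IL-23 and did not overlap with it. The 3.51-fold ratio there (2.30 to 5.67) overlapped that of the ILC gate.

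Slc41a1 (a magnesium carrier; chromosome 1, 131827493 to 131848865) was at 44.3 CPM (41.1 to 47.6) and 87.5 CPM (83.6 to 91.5), 1.97-fold higher (1.81 to 2.16). Its relative Slc41a3 (chromosome 6, 90604725 to 90646412) went the other way, at 20.7 CPM (18.6 to 23.1) and 11.1 CPM (9.73 to 12.6), 1.87-fold lower (1.58 to 2.22). Slc41a3 was at 13.7 and 6.76 CPM in Ncr1 cells and at 26.3 and 15.1 CPM in Ccr6 cells. In Cd3e-positive cells Slc41a3 lay below the measured minimum, at 27 and 25 UMIs.

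Of the 22 measured ion and metal carriers, the other 18 stayed within 1.5-fold. Of the 10 measured members of the zinc families Slc30 and Slc39, 4 had ratios above 1 and 6 below, and Slc39a8 alone was past the size in the ILC gate. In Ncr1 cells on their own Slc39a14 was also at least 1.5-fold higher. Slc39a14 was at 11.5 and 15.4 CPM and Slc39a1 at 26.3 and 33.3 CPM, while Slc30a9 was at 68.9 and 54.3 CPM. Slc31a1, the copper importer, was at 40.8 and 32.7 CPM. Besides Slc41a1, the ion carriers with most UMIs were Slc4a7 and Slc39a7. Slc4a7, a sodium bicarbonate cotransporter, was at 102 and 96.8 CPM, and Slc39a7, which releases zinc from the endoplasmic reticulum, at 84.6 and 77.6 CPM. The zinc exporter Slc30a1 (7.54 and 9.56 CPM) and the endosomal sodium proton exchanger Slc9a9 (8.77 and 9.32 CPM) lay below the measured minimum. The class median log2 ratio was -0.10, and 0.04 with TMM scaling.

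Among mitochondrial carriers, Slc25a51, which brings NAD into mitochondria (chromosome 4, 45395923 to 45408766), was at 56.9 CPM (53.3 to 60.7) and 116 CPM (111 to 120), 2.03-fold higher (1.89 to 2.20). The same gene was at 54.7 and 131 CPM in Ncr1 cells, 59.2 and 103 CPM in Ccr6 cells, 48.5 and 110 CPM in cells with neither gene and 45.7 and 105 CPM in Cd3e-positive cells. Every group thus started between 45.7 and 59.2 CPM and reached at least 103 CPM.

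Slc25a20, the carnitine acylcarnitine carrier of fatty acid oxidation (chromosome 9, 108662088 to 108684641), was at 19.6 CPM (17.5 to 21.8) and 32.6 CPM (30.2 to 35.1), 1.66-fold higher (1.46 to 1.91). Its log2 ratio was 0.50 without cells that held markers of other cell types, against 0.73 in all ILC gate cells. That setting drops any cell with a UMI of most such markers and left 770 and 598 of the 2635 and 2781 ILC gate cells. The markers include Pecam1 and Zbtb46, found in the ILC gate as a whole, and cells with more UMIs are dropped more often by construction. It thus does not remove other cell types alone. Slc25a24, the ATP-magnesium and phosphate carrier (chromosome 3, 109123149 to 109168457), was at 29.0 CPM (26.4 to 31.7) and 16.6 CPM (15 to 18.5), 1.74-fold lower (1.51 to 2.00). In Ncr1 cells Slc25a24 had 38.1 and 17.9 CPM, against 21.8 and 14.7 CPM in Ccr6 cells. Its log2 ratio was -0.80 in all ILC gate cells and -0.31 in the 770 and 598 cells of the setting above.

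The other 17 measured Slc25 genes stayed within 1.5-fold. Slc25a3, the phosphate carrier, gave 70.3% of the Slc25 UMIs of the unstimulated ILC gate and was at 1751 and 1502 CPM. Slc25a5, an ADP/ATP carrier, was at 180 and 165 CPM, and its paralog Slc25a4 at 41.1 and 33.0 CPM. Whether reads were shared between these paralogs was not tested, so their split is uncertain. Of the 20 measured Slc25 genes, 15 had ratios below 1 and 11 had ratios below the median of all genes. The summed level of the 31 members was 2491 CPM (2467 to 2515) and 2234 CPM (2214 to 2254).

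**Figure D2:**
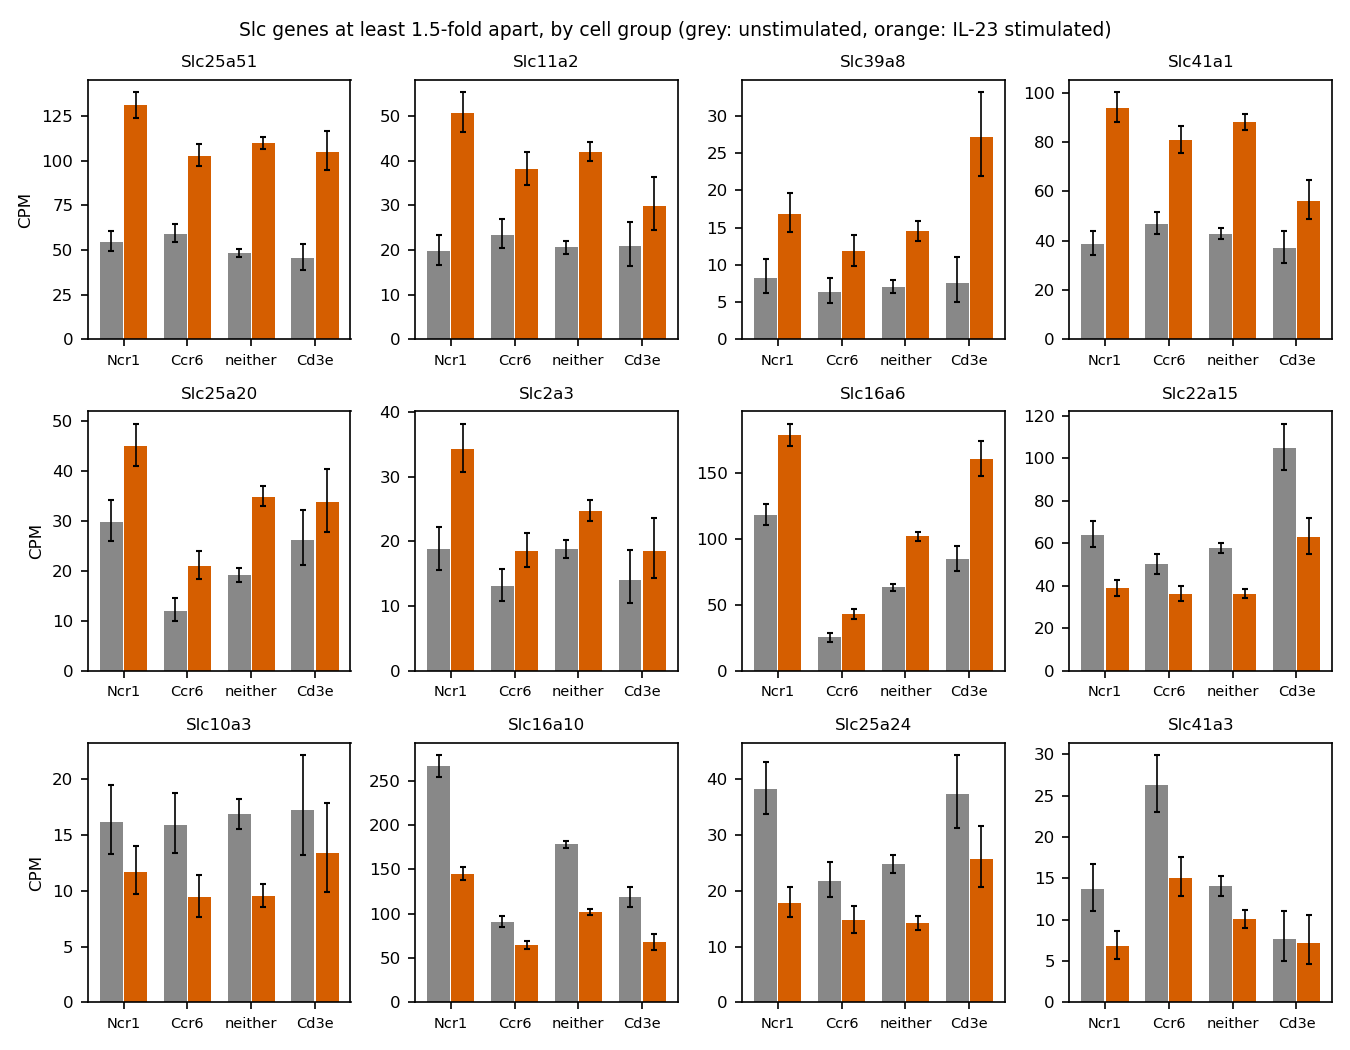
CPM (y axis, from 0) of the 12 Slc genes at least 1.5-fold apart in the ILC gate, in Ncr1 cells, Ccr6 cells, cells with neither gene and Cd3e-positive cells (x axis); grey bars are the unstimulated and orange bars the IL-23 stimulated library, with 95% counting intervals. In the 7 higher genes each orange bar exceeds its grey neighbour, and in the 5 lower genes each is below it.

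Among sugar carriers, Slc2a3 (GLUT3; chromosome 6, 122727809 to 122801640) was at 15.9 CPM (14.0 to 17.9) and 26.0 CPM (23.9 to 28.2), 1.63-fold higher (1.41 to 1.90). It was at 18.8 and 34.3 CPM in Ncr1 cells and at 13.1 and 18.5 CPM in Ccr6 cells. In cells with neither gene it was at 18.8 and 24.8 CPM, which is 1.32-fold. The log2 ratio of Slc2a3 fell short of the 1.5-fold size in all CD3-chain-negative cells (0.50) and in cells with at least 2 UMIs of a gate gene (0.52). It also did so (0.34) in the 997 and 974 ILC gate cells with no UMI of Cd247, Trac, Trbc1, Trbc2 or Trdc. Gm4482 is annotated on the same strand and overlaps Slc2a3.

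Slc2a1 (GLUT1), the main glucose importer of activated lymphocytes, did not differ beyond counting error, at 30.9 and 31.0 CPM with a ratio between 0.895 and 1.13. Slc2a6 (GLUT6), an intracellular member, was at 106 and 74.8 CPM, within 1.5-fold, but past that size on the lower side in cells with neither gene. It gave 49.9% of the sugar carrier UMIs in the unstimulated ILC gate. Slc50a1, a sugar efflux protein, was at 28.2 and 24.9 CPM.

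In the amino acid class, Slc16a10 (TAT1, a carrier of aromatic amino acids; chromosome 10, 40033532 to 40142258) was the one member past the size. Its level was 168 CPM (162 to 175) and 103 CPM (98.8 to 107), 1.63-fold lower (1.54 to 1.73). Slc16a10 was at 266 and 145 CPM in Ncr1 cells, 90.7 and 64.7 CPM in Ccr6 cells, 178 and 102 CPM in cells with neither gene and 118 and 67.6 CPM in Cd3e-positive cells. The stimulated library was lower in each group. The log2 ratio in the ILC gate was -0.71. It was -0.36 in the 997 and 974 of its cells that also had no UMI of Cd247, Trac, Trbc1, Trbc2 or Trdc.

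The carriers best known in lymphocyte activation stayed within 1.5-fold. Slc3a2, the CD98 heavy chain, was at 666 and 765 CPM with a ratio between 1.12 and 1.18. Its light chain Slc7a5 (LAT1, the leucine exchanger) was lower, at 87.6 and 66.9 CPM with a ratio between 0.709 and 0.822. The glutamine carriers Slc1a5 (ASCT2) at 83.1 and 77.7 CPM, Slc38a1 at 368 and 320 CPM and Slc38a2 at 925 and 662 CPM were all lower in the stimulated library, Slc1a5 within counting error. The arginine importer Slc7a1 was at 147 and 127 CPM.

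The endolysosomal histidine and peptide carriers formed a pair below 1. Slc15a3 was at 954 and 660 CPM with a ratio between 0.677 and 0.708, and Slc15a4 at 28.3 and 18.9 CPM with a ratio between 0.583 and 0.765. Slc15a4 was at least 1.5-fold lower in Ncr1 cells and in cells with neither gene. Tmem132a overlaps Slc15a3 on the other strand, at 2.82 and 1.82 CPM, and Glt1d1 overlaps Slc15a4 with no UMI in these cells. Of the 16 measured amino acid carriers, 13 had ratios below 1 and 9 had ratios below the median of all genes. Their class median log2 ratio was -0.20, -0.06 with TMM scaling and -0.16 when the total left out the most abundant genes. The class sum was 3637 CPM (3608 to 3667) and 2991 CPM (2968 to 3014). Slc15a3 was the largest member, at 26.2% of the unstimulated sum.

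The only measured monocarboxylate carrier was Slc16a6 (chromosome 11, 109450855 to 109473598), linked to export of ketone bodies and taurine. Its level was 66.9 CPM (63.0 to 71.0) and 109 CPM (104 to 113), 1.62-fold higher (1.51 to 1.75). Amz2 and Arsg lie on the other strand of Slc16a6, at 49.2 and 51.6 CPM and at 1.47 and 1.96 CPM, and the strand of the counting is not given. The lactate carriers lay below the measured minimum, Slc16a1 (MCT1) at 3.56 and 3.31 CPM and Slc16a3 (MCT4) at 3.25 and 1.35 CPM.

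Among carriers of other organic solutes, Slc22a15, of the organic cation and anion family (chromosome 3, 101855776 to 101924453), was at 56.9 CPM (53.3 to 60.6) and 37.2 CPM (34.7 to 39.9), 1.53-fold lower (1.39 to 1.68). Slc10a3 (chromosome X, 74369217 to 74373349) was at 16.2 CPM (14.3 to 18.3) and 10.6 CPM (9.25 to 12.1), 1.53-fold lower (1.28 to 1.84). Ubl4a overlaps Slc10a3 on the same strand and was at 30.6 and 28.2 CPM. The intervals of both ratios include 1.5. Slc5a3, the myo-inositol carrier, was at 131 and 109 CPM, and Slc23a2, the ascorbate carrier, at 94.4 and 88.7 CPM. Mrps6, on the same strand as Slc5a3 and overlapping it, was at 364 and 285 CPM.

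None of the 10 measured nucleotide sugar carriers passed 1.5-fold. Slc35a2, the UDP-galactose carrier of the Golgi, came nearest on the higher side at 25.0 and 34.1 CPM. Slc35b1 was at 107 and 113 CPM, and the sulfate donor carriers Slc35b2 and Slc35b3 at 57.2 and 56 CPM and at 44.5 and 37.4 CPM. The nucleoside carriers lay below the measured minimum: the equilibrative Slc29a1 was at 4.85 and 4.29 CPM, and the concentrative Slc28a2 at 5.21 and 4.89 CPM. Among members below the measured minimum in the ILC gate and named after their values were seen, Slc49a4 was at 3.01 and 8.25 CPM. Slc44a2, a choline carrier-like protein, was at 4.29 and 8.72 CPM. Counted in Ccr6 cells on their own, Slc49a4 was measured and had the highest log2 ratio of the members there, 1.68. Slc44a2 was measured and at least 1.5-fold higher in Ncr1 cells.

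RefSeq promoter windows (GRCm38.p6, 250 bases before to 50 after a start) matched 110 of the 145 members and 7 of the 12 that were at least 1.5-fold apart. The stretches of all 7 are shown, 3 higher genes first and then 4 lower ones, with both starts of Slc39a8, to set side by side the DNA before genes that differed in opposite directions. Each is the part of the window before the start that lies outside annotated exons, on the strand of the gene, and capitals mark letters that match a searched pattern. Slc41a1 is chr1:131827762-131827976 (plus strand), Slc25a20 chr9:108661886-108662087 (plus), Slc39a8 chr3:135825029-135825278 (plus) before its first and chr3:135825532-135825653 (plus, in an intron) before its second start, Slc41a3 chr6:90618996-90619146 (plus), Slc22a15 chr3:101924454-101924703 (minus), Slc25a24 chr3:109122899-109123148 (plus) and Slc16a10 chr10:40142259-40142504 (minus). The stretches of Slc41a1 and Slc41a3 also lie inside the annotated spans of these genes.
Slc41a1: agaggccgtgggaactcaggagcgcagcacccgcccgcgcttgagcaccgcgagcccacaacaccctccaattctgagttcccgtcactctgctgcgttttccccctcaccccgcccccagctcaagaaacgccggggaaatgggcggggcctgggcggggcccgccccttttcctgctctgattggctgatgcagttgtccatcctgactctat
Slc25a20: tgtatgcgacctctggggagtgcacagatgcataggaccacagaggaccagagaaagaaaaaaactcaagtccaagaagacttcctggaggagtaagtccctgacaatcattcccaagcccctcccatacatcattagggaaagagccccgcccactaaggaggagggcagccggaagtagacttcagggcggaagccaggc
Slc39a8 first start: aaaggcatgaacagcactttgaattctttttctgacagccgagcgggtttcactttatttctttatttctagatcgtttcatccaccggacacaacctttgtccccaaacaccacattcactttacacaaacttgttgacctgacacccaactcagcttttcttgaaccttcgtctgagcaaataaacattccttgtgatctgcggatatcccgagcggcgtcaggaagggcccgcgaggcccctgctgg
Slc39a8 second start: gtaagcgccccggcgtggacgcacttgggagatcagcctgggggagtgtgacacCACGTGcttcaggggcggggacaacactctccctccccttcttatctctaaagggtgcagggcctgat
Slc41a3: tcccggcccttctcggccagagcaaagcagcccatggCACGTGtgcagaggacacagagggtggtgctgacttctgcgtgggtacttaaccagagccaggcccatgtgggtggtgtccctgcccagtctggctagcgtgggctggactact
Slc22a15: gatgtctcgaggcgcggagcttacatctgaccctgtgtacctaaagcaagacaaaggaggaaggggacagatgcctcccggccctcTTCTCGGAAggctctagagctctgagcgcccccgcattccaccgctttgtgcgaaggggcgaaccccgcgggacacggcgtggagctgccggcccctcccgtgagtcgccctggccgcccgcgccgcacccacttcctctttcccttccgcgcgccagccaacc
Slc25a24: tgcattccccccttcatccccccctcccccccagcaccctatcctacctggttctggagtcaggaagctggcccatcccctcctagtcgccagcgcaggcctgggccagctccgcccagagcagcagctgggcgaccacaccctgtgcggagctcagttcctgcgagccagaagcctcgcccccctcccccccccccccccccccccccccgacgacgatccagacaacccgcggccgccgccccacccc
Slc16a10: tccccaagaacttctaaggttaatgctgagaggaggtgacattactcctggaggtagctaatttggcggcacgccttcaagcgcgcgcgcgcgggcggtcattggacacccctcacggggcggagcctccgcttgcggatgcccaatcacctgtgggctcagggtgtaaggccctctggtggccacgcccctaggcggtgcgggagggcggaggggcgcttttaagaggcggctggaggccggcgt

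The patterns, searched on both strands, were TTCNNNGAA and its stricter form TTCCNGGAA, known for STAT factors, TGATGNAA, known for C/EBP-ATF dimers, ACGTG, known for hypoxia factors, and CACGTG, the E-box, which contains ACGTG. Slc41a3 and the second start of Slc39a8 have CACGTG, 213 and 71 bases before the start, and Slc22a15 holds TTCTCGGAA, a match to TTCNNNGAA, 164 bases before it. No match lies in the other 5 stretches. Over all windows, TTCNNNGAA was found in 9.55% of genes and 9 of 110 members (8.18%), TTCCNGGAA in 1.35% and in no member, TGATGNAA in 4.51% and 4 members (3.64%), ACGTG in 21.8% and 38 members (34.5%), and CACGTG in 8.09% and 19 members (17.3%). These are matches of letters and show no binding.

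In Cd3e-positive cells, 97 members were measured. With IL-23, 6 were at least 1.5-fold higher (Slc39a8, Slc25a51, Slc25a30, Slc16a6, Slc44a2 and Slc41a1) against 4.95% of all measured genes, and 11 were lower against 6.97%. The 11 included 5 amino acid carriers, namely Slc16a10, Slc15a3, Slc43a2, Slc36a4 and Slc32a1, together with Slc2a6, Slc22a15, Slc16a3, Slc25a32, Slc41a2 and Slc39a4. With TMM scaling the split was 9 to 9, with 6.41% and 5.14% of all genes. The median log2 ratio of the members was -0.07, the same as that of all genes.

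Slc39a8 and Slc25a51 were the higher members past 2-fold. Slc16a6 was at 85.0 and 161 CPM, and Slc44a2 at 16.9 and 25.7 CPM. On the lower side, Slc43a2, a carrier of neutral amino acids, was at 16.9 CPM (60 UMIs) and 5.42 CPM (19 UMIs). Slc32a1, the vesicular GABA carrier, was at 12.7 CPM (45 UMIs) and 2.57 CPM (9 UMIs). The lactate exporter Slc16a3 was at 10.7 CPM (38 UMIs) and 5.99 CPM (21 UMIs). These lower members rest on few UMIs. Leaving out cells that held markers of other types left 179 and 155 Cd3e-positive cells, where the count of lower members was 18. The share of all genes in that setting is not given here. In that setting Slc16a3 (log2 ratio -0.20, against -0.83 in all Cd3e-positive cells), Slc22a15 (-0.31 against -0.73) and Slc25a30 (0.49 against 0.98) were no longer past the size. Slc2a1 was at 21.5 and 25.7 CPM, Slc3a2 at 541 and 577 CPM, and Slc7a5 at 55.3 and 53.7 CPM, all within 1.5-fold.

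Ncr1 and Ccr6 cells were then compared within each library. Of 82 members measured in both libraries, 10 were at least 1.5-fold higher in Ncr1 cells in both libraries (7.04% of all genes) and 12 at least 1.5-fold lower (9.26%). With TMM scaling, the split was 16 to 8, with 9.19% and 6.58% of all genes. Within the unstimulated library 16 of 90 measured members were higher (9.49% of genes) and 13 lower (13.9%), and within the stimulated one 13 of 86 were higher (9.45%) and 15 lower (12.8%). The higher members were the amino acid carriers Slc6a20a, Slc16a10 and Slc7a6, with Slc16a6, Slc25a20, Slc25a30, Slc35f6, Slc37a3, Slc39a4 and the non-carrier Slc7a6os. The lower ones were Slc6a13, Slc15a3, Slc15a4, Slc30a9, Slc41a3, Slc24a5, Slc20a1, Slc25a4, Slc25a25, Slc35b2, Slc33a1 and Slc5a3.

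**Figure D3:**
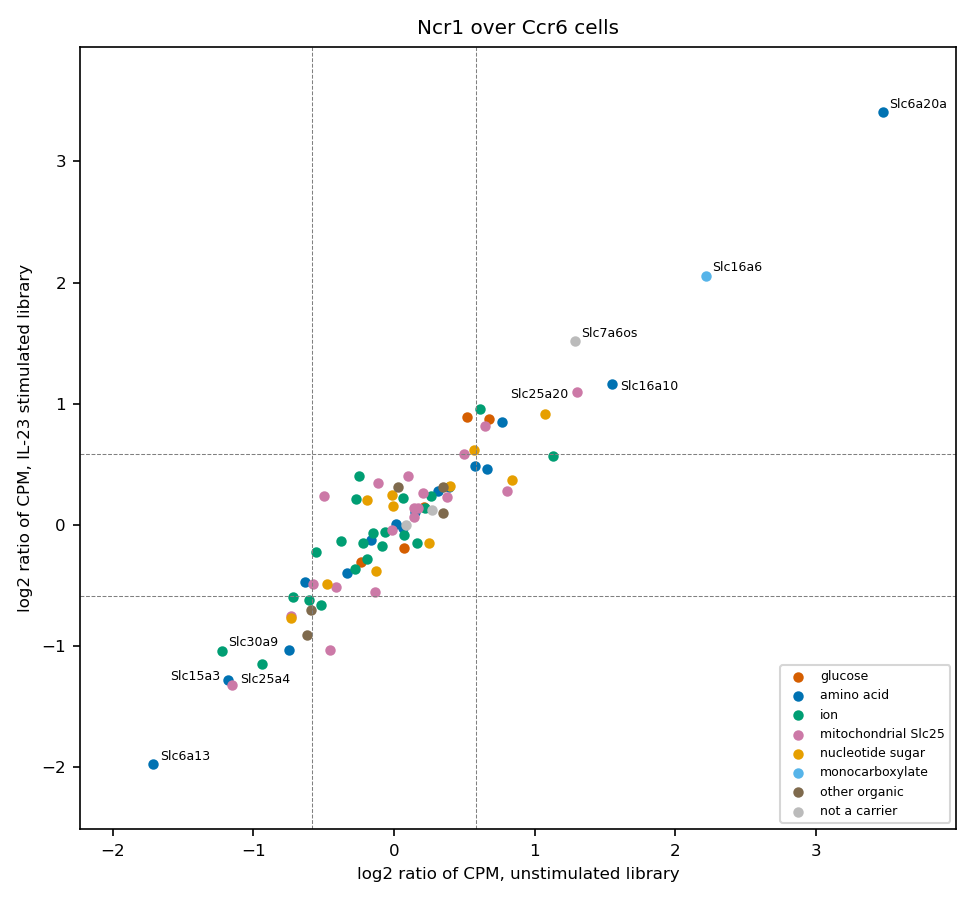
Log2 ratio of CPM of Ncr1 over Ccr6 cells in the unstimulated (x axis) and IL-23 stimulated library (y axis), 1 point per Slc gene measured in both, coloured by class; dashed lines mark 1.5-fold and genes past 2-fold in both are named. Slc6a20a stands highest, at 3.48 and 3.41, and Slc6a13 lowest, at -1.71 and -1.97.

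Slc6a20a, a carrier of proline and other imino acids (chromosome 9, 123634770 to 123678885), was at 31.7 and 31.8 CPM in Ncr1 cells and at 2.80 and 2.96 CPM in Ccr6 cells. It was 11.1-fold higher (7.48 to 17.9) in Ncr1 cells of the unstimulated library and 10.6-fold higher (7.46 to 16) in the stimulated one. Ccr9, the gut homing receptor on the other strand of Slc6a20a, was at 23.4 and 16.9 CPM in Ncr1 cells and at 1.90 and 0.925 CPM in Ccr6 cells. In Cd3e-positive cells the levels of these genes did not go together, with Ccr9 at 48.6 and 14.6 CPM and Slc6a20a at 0.847 and 4.0 CPM. The strand of the counting is not given, and whether reads of Ccr9 were counted for Slc6a20a was not tested. Slc6a20a also has a paralog, Slc6a20b, at 1.75 and 3.03 CPM in Ncr1 cells.

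Slc16a6 had 119 and 179 CPM in Ncr1 cells against 25.5 and 43.0 CPM in Ccr6 cells. This was 4.64-fold (4.01 to 5.41) and 4.16-fold (3.76 to 4.62) higher. Slc16a10 was 2.93-fold (2.70 to 3.19) and 2.24-fold (2.05 to 2.46) higher. These genes of 1 family were thus both higher in Ncr1 cells, while with IL-23 Slc16a6 was higher and Slc16a10 lower. Slc25a20 had 29.8 and 45.0 CPM in Ncr1 cells against 12.1 and 21.0 CPM in Ccr6 cells, 2.46-fold and 2.14-fold higher. The nucleoside carrier Slc28a2 was at 10.5 and 8.38 CPM in Ncr1 cells and at 1.12 and 1.57 CPM in Ccr6 cells. It was measured in the unstimulated library alone, and is named after its values were seen.

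On the Ccr6 side, Slc6a13 (GAT2, a carrier of GABA and taurine; chromosome 6, 121300227 to 121337733) was at 38.2 and 35.8 CPM in Ccr6 cells against 11.6 and 9.08 CPM in Ncr1 cells, 3.27-fold and 3.92-fold apart. Slc15a3 (chromosome 19, 10839727 to 10859362) was at 1270 and 922 CPM in Ccr6 cells and at 561 and 380 CPM in Ncr1 cells. Slc30a9 was at 92.0 and 72.8 CPM in Ccr6 cells and at 39.4 and 35.4 CPM in Ncr1 cells, and Slc25a4 at 54.3 and 46.2 CPM against 24.4 and 18.5 CPM. Each of these stood at least 2-fold higher in Ccr6 cells of both libraries. Leaving out cells that held markers of other types left 344 and 300 Ncr1 cells and 418 and 292 Ccr6 cells. The counts were then 11 and 9, and the share of all genes is not given for them. There Slc15a4 and Slc37a3 changed side in at least 1 library. T cell receptor transcripts also differed between these cells: Trbc1 was at 362 and 305 CPM in Ncr1 cells against 102 and 89.5 CPM in Ccr6 cells, and Trbc2 at 321 and 212 CPM against 144 and 109 CPM. Summed endothelial or stromal markers were at 98.5 and 96.1 CPM against 60.7 and 69.7 CPM, and dendritic markers at 17.2 and 16.7 CPM against 110 and 96.3 CPM. The part of these transcripts, and of the uneven plasma cell transcripts, in the result was not tested.

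Cd3e-positive cells were compared with the ILC gate in the same way. Of 90 members measured in both libraries, 13 were at least 1.5-fold higher in Cd3e-positive cells (14.2% of all genes) and 13 at least 1.5-fold lower (10.1%). TMM scaling gave a split of 11 to 20, with 11.1% and 13.1% of all genes. In the unstimulated library alone 24 of 101 measured members were higher (18% of genes) and 20 lower (13.5%), and in the stimulated one 20 of 92 were higher (20.2%) and 17 lower (12.9%). The amino acid class was summed to 2148 CPM (2100 to 2197) and 1875 CPM (1830 to 1921) in Cd3e-positive cells, against 3637 and 2991 CPM in the ILC gate. Slc15a3 gave 26.2% of the class sum in the unstimulated ILC gate. The lower members of the class were Slc6a20a, Slc15a3, Slc7a1 and Slc38a2. The one higher member was Slc38a9, the lysosomal arginine sensor, at 41.8 and 35.1 CPM against 24.0 and 22.8 CPM.

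**Figure D4:**
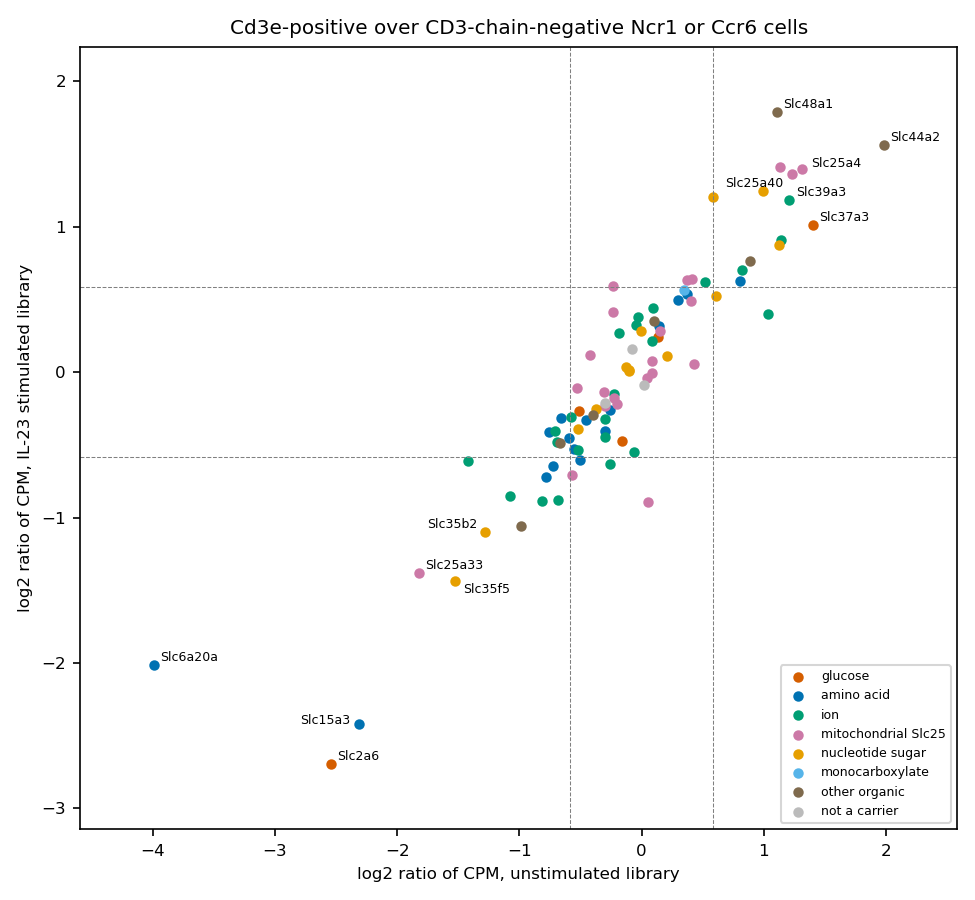
Log2 ratio of CPM of Cd3e-positive over ILC gate cells in the unstimulated (x axis) and IL-23 stimulated library (y axis), 1 point per Slc gene measured in both, coloured by class; dashed lines mark 1.5-fold and genes past 2-fold in both that the text describes are named. Slc6a20a (-3.99 and -2.01), Slc2a6 (-2.54 and -2.69) and Slc15a3 (-2.31 and -2.42) lie lowest, and Slc44a2 (1.98 and 1.56) and Slc48a1 (1.11 and 1.79) highest.

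Slc2a6 (chromosome 2, 27021363 to 27027998) was at 18.1 and 11.4 CPM in Cd3e-positive cells against 106 and 74.8 CPM in the ILC gate, 5.83-fold and 6.47-fold lower. Slc15a3 was at 192 and 123 CPM against 954 and 660 CPM, 4.97-fold and 5.36-fold lower. Slc6a20a rested on 3 and 14 UMIs in Cd3e-positive cells, and its ratio to the ILC gate was 0.0628 (0.0111 to 0.159) and 0.248 (0.130 to 0.407). Slc25a33, a mitochondrial carrier of pyrimidine nucleotides, was at 8.47 and 7.99 CPM against 30.5 and 21.2 CPM, and Slc35f5 at 3.95 and 4.28 CPM against 11.8 and 11.9 CPM. Slc35b2 was at 23.4 and 26.0 CPM against 57.2 and 56 CPM.

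Higher in Cd3e-positive cells was Slc44a2 (chromosome 9, 21320698 to 21355028), at 16.9 and 25.7 CPM against 4.29 and 8.72 CPM, 3.95-fold (2.75 to 5.65) and 2.96-fold (2.27 to 3.81). The heme carrier Slc48a1 was at 15.5 and 20.5 CPM against 7.24 and 5.97 CPM, with Hdac7 on its other strand at 17.5 and 14.3 CPM against 20.2 and 13.6 CPM. Among the higher mitochondrial carriers, Slc25a4 was at 102 and 86.8 CPM and Slc25a40 at 18.6 and 12.8 CPM. Slc37a3 was at 29.4 and 22.0 CPM against 11.2 and 11 CPM, and the zinc importer Slc39a3 at 15.2 and 15.7 CPM against 6.62 and 6.95 CPM. Slc22a15 was 1.85-fold and 1.70-fold higher in Cd3e-positive cells, and lower with IL-23 in both cell types.

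Lists of carrier biology chosen by function were also counted in the ILC gate, where 3.72% of all measured genes were higher and 4.57% lower by the same size and the median log2 ratio was -0.12. They share 2 genes with the members, Slc9a3r1 among regulators and Slc38a9 among sensing genes. Among carriers with other symbols, 22 of 43 were measured, 2 were at least 1.5-fold higher and none lower, with a median log2 ratio of -0.18. Mfsd6 was at 85.0 and 162 CPM. Pqlc1, since renamed to a Slc66 symbol, was at 24.8 CPM and 206 CPM, 8.27-fold higher (7.48 to 9.19), and in Cd3e-positive cells at 46.0 and 166 CPM. No member among the 145 had a ratio of that size in these cells.

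Of 16 measured chaperones and regulators of carriers, 1 was higher and 3 were lower, with a median log2 ratio of 0.01. Hexokinase Hk1 was at 12.9 and 26.9 CPM and Hk2 at 677 and 360 CPM, so the enzymes that trap imported glucose differed in opposite directions. Txnip, which drives glucose carriers off the cell surface, was at 47.6 and 30.4 CPM, and the kinase subunit Pik3r1 at 416 and 216 CPM. The monocarboxylate carrier chaperone Bsg was at 225 and 234 CPM. Of 21 measured genes of amino acid sensing by mTORC1, none was higher and Mlst8 and Tsc1 were lower, at 10.5 and 6.67 CPM and at 27.4 and 18.1 CPM. None of 15 measured genes of the ATF4 amino acid response passed 1.5-fold in either direction, and Atf4 itself was at 908 and 922 CPM.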

How the data were processed

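The deposited values were whole-number counts of UMIs per gene and barcode, which the authors did not normalize, for 2 libraries of 10x Genomics droplets. Per the submitters' processing notes the tool was Cell Ranger 3.1.0 with build mm10, while the matrix header names cellranger 6.0.0. Neither strand, annotation nor cell calling is given in the sources used here. Counts were summed per library and cell group and divided by the group total (CPM). Ratios were log2 of CPM with 0.5 UMI added to each sum. Intervals were exact Poisson for levels and exact binomial (Clopper-Pearson) for ratios, at 95%, and cover counting error only. A size of 1.5-fold was counted as a size, not a test. Doublets were not removed, and the alternative without the 5% of cells with most UMIs bears on them. TMM factors came from edgeR 4.0.16, and other values from Python 3.11.15, numpy 2.4.6, scipy 1.17.1 and pandas 2.3.3. The code for ratios and intervals was run on simulated Poisson counts with 200 changed genes. The intervals assume such counts, so that run cannot show how cells or libraries vary. Positions came from GENCODE vM21 on GRCm38, which matched all 145 members by gene identifier.

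Genes were named by a rule: in each class up to 4 measured members with the highest and up to 3 with the lowest ratios past 1.5-fold, the 3 with most CPM, the 6 furthest apart in each direction between cell groups, and 15 genes fixed by name. Other members named in the text were chosen after their values were seen. The values of 1 counted member are not reported here. The members and gene lists were chosen with earlier results of these data known. The class of the Slc49 family was assigned after the files had been read. Alternatives covered scaling, the filter on low genes, cell filters, gates, depth, markers of other cell types and the size; leaving out shared barcodes was added after seeing the data.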

Additional observations from a re-analysis of the deposited data

How the results depend on the processing

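Of 90 counts of members under alternatives, 68 lay within 1.5 times the reported count. A further 869 values were ratios of members past 1.5-fold and medians of members, and 3 of the ratios changed direction. The 2-fold size and the absence of a filter on low genes leave each ratio unchanged, so no direction could change there. With TMM scaling, 2 members were lower with IL-23 in the ILC gate, 16 were higher in Ncr1 than Ccr6 cells and 20 were lower in Cd3e-positive than ILC gate cells. With totals that left out mitochondrial, ribosomal protein and the 50 most abundant genes, 3 members were lower with IL-23 in the ILC gate. With no filter on low genes, 12 members were higher and 14 lower with IL-23 in the ILC gate, 12 and 17 in Cd3e-positive cells, 18 and 19 between Ncr1 and Ccr6 cells, and 27 were higher in Cd3e-positive than ILC gate cells. More genes enter there by construction. At 2-fold the counts were 3 and 0, 2 and 2, 5 and 4, and 7 and 6 in the same order, higher then lower. With cells of 3000 to 10000 UMIs, 20 members were higher in Cd3e-positive cells, and with at least 2 UMIs of Ncr1 or Ccr6, 8 were lower with IL-23 in the ILC gate. Without cells that held markers of other types, which left 179 and 155 Cd3e-positive cells, 18 members were lower with IL-23 there. Among alternatives, shares of all genes are given above for TMM scaling alone. The other counts thus cannot be read as particular to Slc genes. The setting without cells that held markers of other types gave the 3 changes of direction. Values are those of the library with the smaller absolute log2 ratio, so a change in the other library alone is not counted. They were 0.43 for Slc15a4 and -0.43 for Slc37a3 between Ncr1 and Ccr6 cells, and 0.0310 for Slc41a3 between Cd3e-positive and ILC gate cells. Other than by construction, the cause was not tested. The 12 members past 1.5-fold in the ILC gate kept their direction under every alternative run there that could change a ratio. Without barcodes found in both libraries, all 12 kept the size too. No paired analysis was possible because each group was 1 library. Levels near 10 CPM in Cd3e-positive cells rest on few UMIs, which limits what can be read from them.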
